A study of Homo sapiens with 26 samples.

Results

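The genes described here are 9 members of the MHC class I presentation pathway, namely HLA-B, HLA-C, HLA-E, B2M, TAP1, TAP2, TAPBP, NLRC5 and CD274. They were chosen by symbol and make up 9 of the 41078 genes in the deposited table, each with 1 row. The table holds mRNA from 26 single cell-derived cell lines (SCDCLs), 1 library each, 12 labelled BxPC3 and 14 labelled Panc1. Both are established lines of pancreatic ductal adenocarcinoma, and each SCDCL is the progeny of 1 cell grown in high-glucose DMEM with serum. Gemcitabine is named as the treatment of all 26 libraries in the labels, whereas the methods describe it for separate viability assays. How the single libraries answered the drug was not analysed here.

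Class I molecules show peptides from inside the cell to CD8+ T cells. A heavy chain (HLA-B, HLA-C or the less variable HLA-E) folds with the light chain B2M in the endoplasmic reticulum. Peptides are cut by the proteasome and pumped in by the TAP1/TAP2 transporter, and tapasin (TAPBP) holds the empty heavy chain at that transporter. NLRC5 is a transactivator that works at class I promoters through the SXY module, and interferons raise much of the pathway, in part through IRF factors. CD274 encodes PD-L1, which inhibits T cells through PD-1 and is itself induced by interferon. Loss of class I presentation is a known route by which carcinomas escape T cells.

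The libraries were divided by their level of SMAD4, a signal mediator of TGF-beta that is often lost in pancreatic cancer. TPM is a level corrected for transcript length and library size. SMAD4 lay between 0 and 0.0440 TPM in 12 libraries and between 28.1 and 52.2 TPM in the 14 others, called here the SMAD4-low and the SMAD4-expressing libraries. BxPC3 is known to lack SMAD4 and Panc-1 to express it, yet 7 SMAD4-low libraries are labelled Panc1 and 7 SMAD4-expressing libraries are labelled BxPC3. The label is therefore given below only as a label. The library totals were 27035724 to 34945608 estimated counts. Of 5 epithelial markers EPCAM and CDH1 were higher in every SMAD4-low library, and KRT8, KRT18 and KRT19 overlapped. The medians of KRT8 (461 against 2053 TPM) and KRT18 (521 against 1598 TPM) were lower in the SMAD4-low set, and that of KRT19 (1966 against 1220 TPM) was higher. Of 3 mesenchymal markers VIM and ZEB1 were higher in every SMAD4-expressing library, and CDH2 overlapped. Of 6 immune cell markers 4 stayed under 1 TPM in all 26 libraries, and the summed level of all 6, mostly CD14 with up to 29.1 TPM, was 0.985 to 30.7 TPM in the SMAD4-low and 0.159 to 4.11 TPM in the SMAD4-expressing libraries. Among 3 endothelial markers 1 stayed under 1 TPM throughout, and the sum was 3.16 to 16.97 TPM against 0.321 to 5.39 TPM. The part of any of these markers in the results was not tested.

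The promoters of the members are shown here because several members moved with interferon-stimulated genes. RefSeq windows (build GRCh38.p14) of the 250 bases before the transcription start were found for 7 of the 9 members, and there was no entry for HLA-E and NLRC5. The motif GAAANNGAAA, a short form of the interferon-stimulated response element, was searched on both strands, and overlapping matches were kept. It was present in 5 members (B2M, TAP1, TAP2, TAPBP and CD274), against 3.02% of all 35116 such windows. Capitals mark its matches on either strand, so that a match on the opposite strand reads TTTCNNTTTC.
B2M, chr15:44711267-44711516, plus strand: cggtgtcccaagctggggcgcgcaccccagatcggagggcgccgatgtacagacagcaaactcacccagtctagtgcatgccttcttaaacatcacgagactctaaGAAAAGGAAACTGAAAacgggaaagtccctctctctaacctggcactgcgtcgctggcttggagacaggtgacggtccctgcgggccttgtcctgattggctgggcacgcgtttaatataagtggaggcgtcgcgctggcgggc
TAP1, chr6:32853705-32853954, minus strand: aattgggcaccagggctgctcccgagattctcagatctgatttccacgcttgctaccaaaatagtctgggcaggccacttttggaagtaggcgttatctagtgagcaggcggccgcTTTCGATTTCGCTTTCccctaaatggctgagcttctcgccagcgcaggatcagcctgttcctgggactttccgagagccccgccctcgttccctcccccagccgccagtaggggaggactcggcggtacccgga
TAP2, chr6:32838740-32838989, minus strand: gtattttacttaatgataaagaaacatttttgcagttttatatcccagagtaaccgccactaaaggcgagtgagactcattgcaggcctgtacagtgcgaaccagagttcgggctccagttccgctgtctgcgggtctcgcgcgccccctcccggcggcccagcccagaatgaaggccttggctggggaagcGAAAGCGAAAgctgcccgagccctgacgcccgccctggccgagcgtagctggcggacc
TAPBP, chr6:33314079-33314328, minus strand: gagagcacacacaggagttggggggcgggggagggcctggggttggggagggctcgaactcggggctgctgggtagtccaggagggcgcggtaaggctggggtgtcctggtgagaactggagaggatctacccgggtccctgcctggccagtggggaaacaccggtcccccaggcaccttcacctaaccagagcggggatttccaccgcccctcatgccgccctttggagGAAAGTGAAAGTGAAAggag
CD274, chr9:5450292-5450541, plus strand: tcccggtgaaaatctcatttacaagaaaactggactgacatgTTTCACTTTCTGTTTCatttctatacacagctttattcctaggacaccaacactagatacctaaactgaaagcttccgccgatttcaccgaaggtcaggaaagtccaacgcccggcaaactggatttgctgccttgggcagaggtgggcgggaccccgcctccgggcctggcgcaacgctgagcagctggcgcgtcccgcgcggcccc
HLA-B, chr6:31357180-31357429, minus strand: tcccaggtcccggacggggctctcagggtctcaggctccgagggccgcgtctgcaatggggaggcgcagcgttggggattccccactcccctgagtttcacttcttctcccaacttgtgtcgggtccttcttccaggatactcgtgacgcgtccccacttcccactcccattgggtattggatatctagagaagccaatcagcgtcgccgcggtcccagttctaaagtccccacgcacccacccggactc

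The HLA-B window had no match to GAAANNGAAA, nor did that of HLA-C or the second TAP1 window, which belongs to another annotated start. CCAAT, the core of the Y box bound by NF-Y, was found in 4 of the 7 members with a window (HLA-B, HLA-C, B2M and TAP1), against 32% of all windows. The match nearest the start lay 56 to 52 bases before it in HLA-B and HLA-C and 49 to 45 in B2M. The only TAP1 match lay 249 to 245 bases before the start, at the far edge of the window. Whether any match is a Y box was not tested. A missing match says only that these letters are not in this window. The TAP1 window faces PSMB9, an immunoproteasome gene that is known to share this promoter.

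The 2 sets of libraries held different levels of several members. CD274, NLRC5 and TAP2 were higher in every SMAD4-low library than in any SMAD4-expressing library, and HLA-E was higher in every SMAD4-expressing library. HLA-B, HLA-C, B2M, TAP1 and TAPBP overlapped. Of the 15246 genes with a median of at least 1 TPM in either set, 31.0% had ranges that did not overlap. Of the members 8 were in that background (HLA-C was not), and 4 of them did not overlap. The split was made from the same libraries and was not tested, and SMAD4, EPCAM, CDH1, VIM and ZEB1 separated with it, so their parts cannot be told apart.

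**Figure D1:**
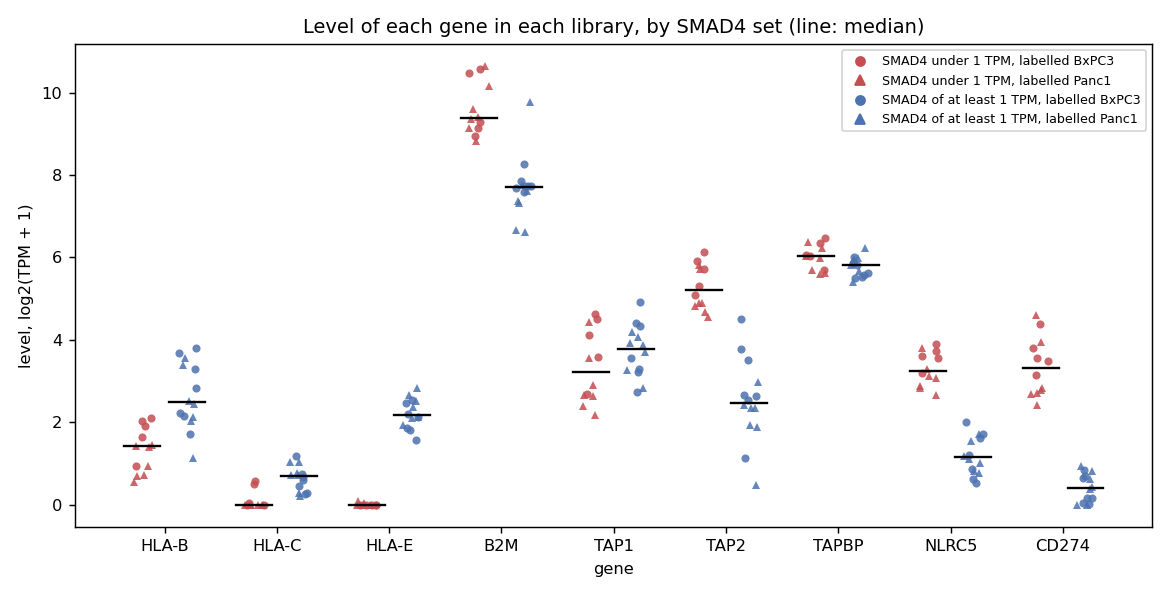
Level of each of the 9 genes as log2(TPM + 1) in each of the 26 libraries, in red for SMAD4 under 1 TPM and blue for SMAD4 of at least 1 TPM, with circles for the label BxPC3, triangles for Panc1 and a line at the median. CD274, NLRC5 and TAP2 separate with red above blue, HLA-E separates with blue above red, and 1 blue B2M value (library 12, 874 TPM) lies among the red ones.

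The heavy chain rows were low. HLA-B ranged from 0.479 to 3.28 TPM with a median of 1.67 in the SMAD4-low libraries, and from 1.21 to 12.9 TPM with a median of 4.603 in the others, 2.76 times as high by medians. HLA-C ranged from 0 to 0.489 TPM in the SMAD4-low and from 0.162 to 1.27 TPM in the SMAD4-expressing libraries. HLA-E was listed at 0 in 10 of the 12 SMAD4-low libraries and reached 0.0720 TPM in the highest. In the SMAD4-expressing libraries it was 1.98 to 6.13 TPM with a median of 3.52, and no value of one set fell into the range of the other.

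In TPM the HLA-B, HLA-C and HLA-E rows together came to 0.0582% to 0.564% of B2M in the SMAD4-low libraries and to 1.84% to 10.9% in the others. Ensembl carries further copies of MHC genes on alternative assemblies of the region under identifiers of their own. The levels given are those of the row matched to each symbol, and whether reads of these highly variable genes were assigned to rows without a symbol was not tested. Such rows held 2.38% to 3.21% of the TPM of a library. This is far more than the 3 heavy chain rows held together, 0.479 to 3.32 TPM in the SMAD4-low and 4.96 to 17.9 TPM in the SMAD4-expressing libraries. HLA-B in the SMAD4-low libraries rested on 11.6 to 71.8 reads, and HLA-C in the SMAD4-expressing libraries on 1.80 to 17.03 reads, as means over 5 of the deposited resamples of the read assignment.

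B2M, the light chain shared by all class I molecules, was the most abundant member in TPM. It ranged from 453 to 1600 TPM with a median of 670 in the SMAD4-low libraries, where libraries 1, 16 and 26 stood highest. In the others it ranged from 96.7 to 874 TPM with a median of 208, and 13 of these 14 libraries lay at or below 309 TPM. The ratio of medians was 3.22. Library 12 made the ranges overlap, and without it B2M did not overlap either. The effective length of B2M in library 12 was the lowest of all, 373 bases. By reads the resamples assigned 6780 to B2M there, within the 5480 to 9055 of its set. The SMAD4-low libraries held 9782 to 46761 reads, so that by reads the sets did not overlap. Library 8 held 100 TPM at 488 bases and 5480 reads, so TPM and reads of B2M did not go together within the set. The part of the effective length in this was not tested, nor which scale gives the level of B2M. The ratio of 3.22 and the percentages of B2M above use TPM.

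**Figure D2:**
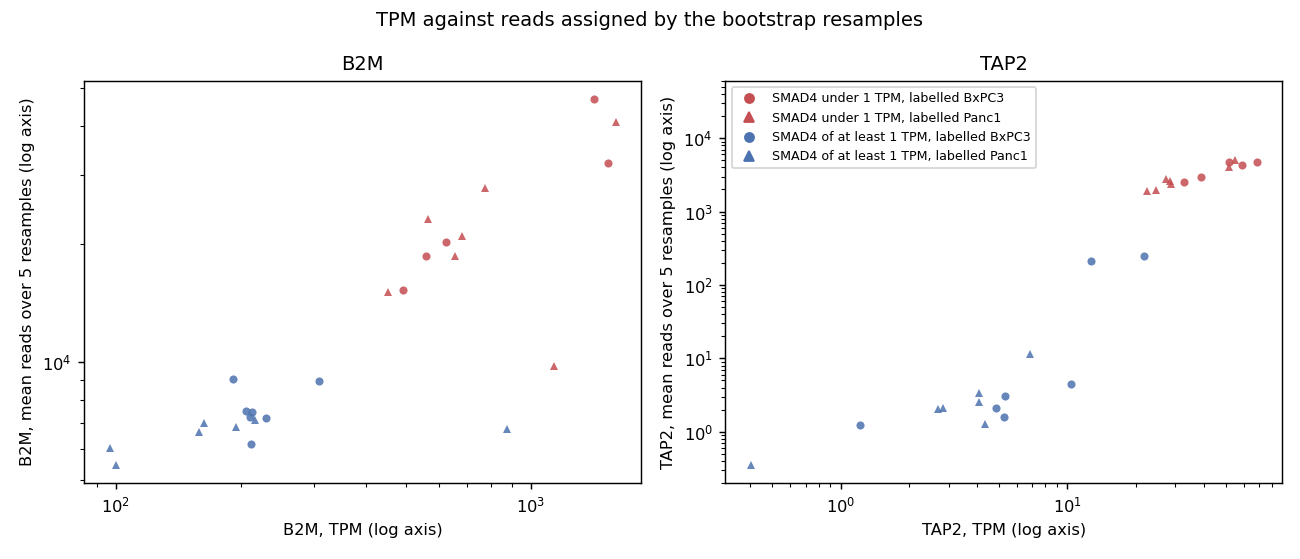
Mean reads over 5 resamples against TPM on log axes for B2M and TAP2, 1 point per library, colours and shapes by set and label. B2M in library 12 (874 TPM, 6780 reads) lies to the right of its set. The resamples assigned few TAP2 reads to most SMAD4-expressing libraries, with a median of 2.31.

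The genes of the peptide transporter differed in how they compared between the sets. TAP1 ranged from 3.54 to 23.8 TPM with a median of 8.62 in the SMAD4-low and from 5.62 to 29.5 TPM with a median of 12.8 in the SMAD4-expressing libraries, and the ranges largely overlapped. TAP2 ranged from 22.54 to 68.8 TPM with a median of 35.8 in the SMAD4-low libraries. In the others it ranged from 0.401 to 21.8 TPM with a median of 4.59, a ratio of 7.82. In the SMAD4-expressing libraries the resamples assigned few reads to TAP2, between 0.354 and 251 with a median of 2.31. Only libraries 20 and 22 exceeded 12 reads. The effective length of TAP2 there was 53.7 to 2047 bases, against 3705 to 4553 bases in the SMAD4-low libraries. These reads did not match the TPM in every library. In library 8 TAP2 had 4.32 TPM at 1939 bases and 1.26 reads, and SMAD4 had 36.6 TPM at 1983 bases and 1440 reads. In library 23 TAP2 had 1.22 TPM at 56.8 bases and 1.23 reads. The cause was not tested. With CPM and TMM factors the TAP2 ranges overlapped.

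TAPBP, which holds the empty heavy chain at the transporter, was the steadiest member. It ranged from 47.6 to 87.5 TPM in the SMAD4-low and from 41.4 to 73.7 TPM in the SMAD4-expressing libraries, with a ratio of medians of 1.16. NLRC5, the class I transactivator, ranged from 5.29 to 13.9 TPM with a median of 8.51 in the SMAD4-low libraries and from 0.453 to 3.01 TPM with a median of 1.23 in the others, a ratio of 6.94. CD274 ranged from 4.35 to 23.52 TPM with a median of 9.03 against 0 to 0.932 TPM with a median of 0.333, a ratio of 27.2.

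Within a set the members varied by different amounts. In the SMAD4-low libraries the coefficient of variation was 66.7% for TAP1, 59.1% for HLA-B, 58.0% for CD274, 48.7% for B2M, 38.4% for TAP2, 31.2% for NLRC5 and 21.47% for TAPBP. The median over all 14095 genes tested in this set was 22.48%, and TAP1 exceeded 95.6% of them. The resampling error of a library was small beside this for TAP1, with a median of 6.05%, and larger for HLA-B at 13.7%. For the SMAD4-expressing libraries TAP2 reached 89.6% and B2M 78.7%, the latter with library 12 included, against a median of 21.45% over 13532 genes. The resampling error of TAP2 there had a median of 37.9% and reached 194%, and that of NLRC5 had a median of 19.31%.

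No member passed the test between the labels, in which HLA-C was filtered out for its low counts. With edgeR's quasi-likelihood test over 16008 genes 0 genes passed an adjusted p of 0.05 between libraries labelled Panc1 and BxPC3, a background of 0%, and 367 had an unadjusted p under 0.05. DESeq2 called 2 genes and limma 0, and edgeR with the SMAD4 set as a covariate called 0. Each label held libraries of both sets. In fits without that covariate the gap between the sets is part of the spread within a label. With it the smallest edgeR adjusted p was 0.233. The power of these fits was not tested. The log2 fold change, Panc1 minus BxPC3, was -0.66 for HLA-B, -0.54 for TAP1 and 0.08 for B2M, each with an edgeR adjusted p of 1.00. Within the SMAD4-low set HLA-B had a median of 2.74 TPM in the 5 libraries labelled BxPC3 and 0.925 TPM in the 7 labelled Panc1, with overlapping ranges.

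The question of the next comparison was whether the members rise and fall together among SCDCLs of 1 set. Log2(TPM + 1) of every gene with a median of at least 1 TPM was fitted on each member with limma, and p was adjusted over all genes. A pair was called when both directions of the fit had an adjusted p under 0.05. There were 21 pairs among 7 members in each set, 42 in all, but the 7 were not the same. HLA-B, B2M, TAP1, TAP2, TAPBP and NLRC5 passed the minimum level in both sets. CD274 passed it only in the SMAD4-low and HLA-E only in the SMAD4-expressing set. Pairs with CD274 or HLA-E therefore had no counterpart in the other set. In the SMAD4-low libraries all 21 were positive, with a median r of 0.54 against 0.11 over all gene pairs, of which 60.2% were positive, and 5 pairs were called. Over the 7 members 1.47% of all gene relations were called as positive in this set. In the SMAD4-expressing libraries 16 of 21 pairs were positive, the median r was 0.13 against 0.03 over all gene pairs, and 0 pairs were called, where 0% of all gene relations were called as positive. The difference between the sets was not tested.

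**Figure D3:**
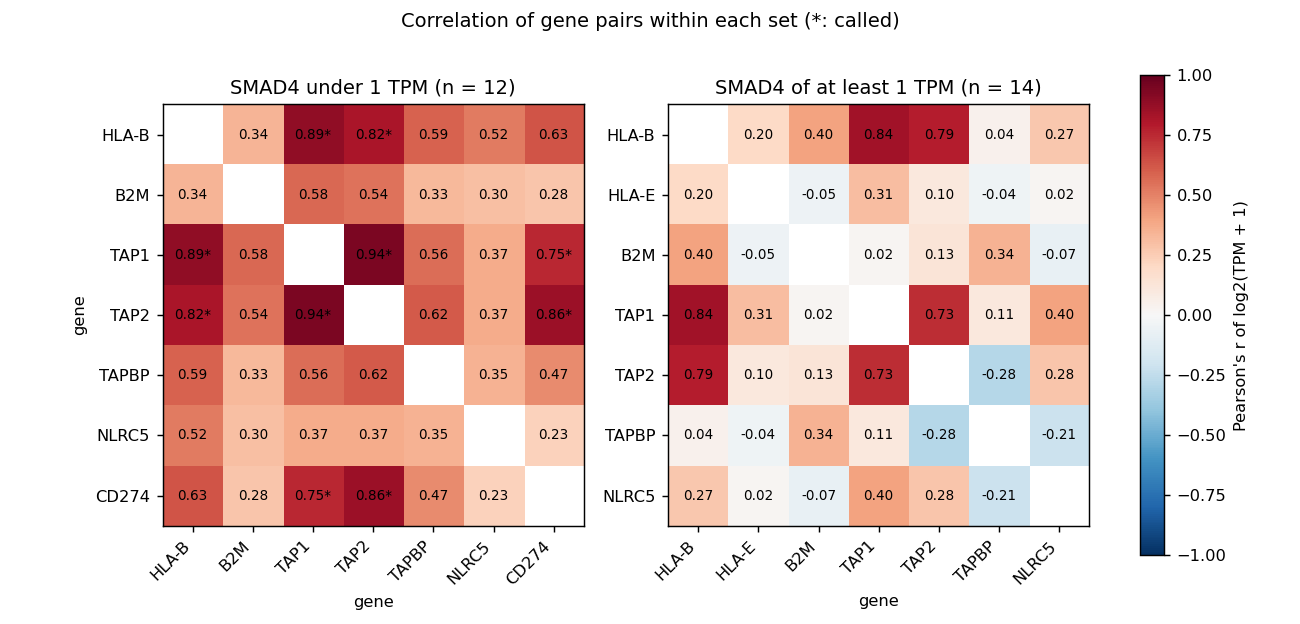
Pearson's r of log2(TPM + 1) for each pair of 7 members within the 12 SMAD4-low libraries (left) and the 14 SMAD4-expressing libraries (right), with a star for called pairs. CD274 is among the 7 only on the left and HLA-E only on the right. All 5 stars are on the left, among HLA-B, TAP1, TAP2 and CD274, and the highest r is 0.94 for TAP1 with TAP2.

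TAP1 and TAP2 had an r of 0.94 (n = 12, permutation p = 0.0001) and a rho of 0.92 (permutation p = 7e-05), with a limma adjusted p of 0.000996. Without the 2 libraries farthest in TAP1 the r was 0.91. Libraries 16, 21 and 1 were high and libraries 3 and 5 low in both transporter genes. HLA-B and TAP1 had an r of 0.89 (n = 12, permutation p = 0.00041) and a rho of 0.92 (permutation p = 6e-05), with a limma adjusted p of 0.0134, and the r was 0.85 without the 2 farthest libraries.

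HLA-B and TAP2 had an r of 0.82 (n = 12, permutation p = 0.0024) and a rho of 0.78 (permutation p = 0.0043), with a limma adjusted p of 0.0299, and an r of 0.78 without the 2 farthest. CD274 and TAP2 had an r of 0.86 (n = 12, permutation p = 0.00093) and a rho of 0.85 (permutation p = 0.00082), with a limma adjusted p of 0.0114, and an r of 0.92 without the 2 farthest. CD274 and TAP1 had an r of 0.75 (n = 12, permutation p = 0.0066) and a rho of 0.78 (permutation p = 0.0037), with a limma adjusted p of 0.0498, and an r of 0.74 without the 2 farthest. The PD-L1 gene thus tended to be high where the transporter genes were high, but the highest libraries differed. Library 4 was highest in CD274 (23.52 TPM) and held 10.8 TPM of TAP1. Library 16 was highest in TAP1 and TAP2 and held 10.8 TPM of CD274.

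These calls depended on the label and on single libraries. With the label as a covariate 2 of the 5 calls remained, TAP1 with TAP2 and TAP2 with CD274, and the partial r of HLA-B with TAP1 was 0.84 (limma adjusted p = 0.143). Without library 3, 2 pairs were called (HLA-B with TAP1 and TAP1 with TAP2), and 3 pairs were called without library 5, 6, 21 or 26. TAP1 with TAP2 was called in each of these fits. CD274 with TAP1, close to the threshold, lost its call without library 1, 2, 3, 5, 6, 7, 21, 24 or 26 and without the filter on low levels. HLA-B with TAP2 lost its call without library 3, 5, 6, 21 or 26, HLA-B with TAP1 without library 21, and CD274 with TAP2 without library 3. In all of these fits r stayed positive, and the lowest was 0.70 for CD274 with TAP1 without library 21.

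**Figure D4:**
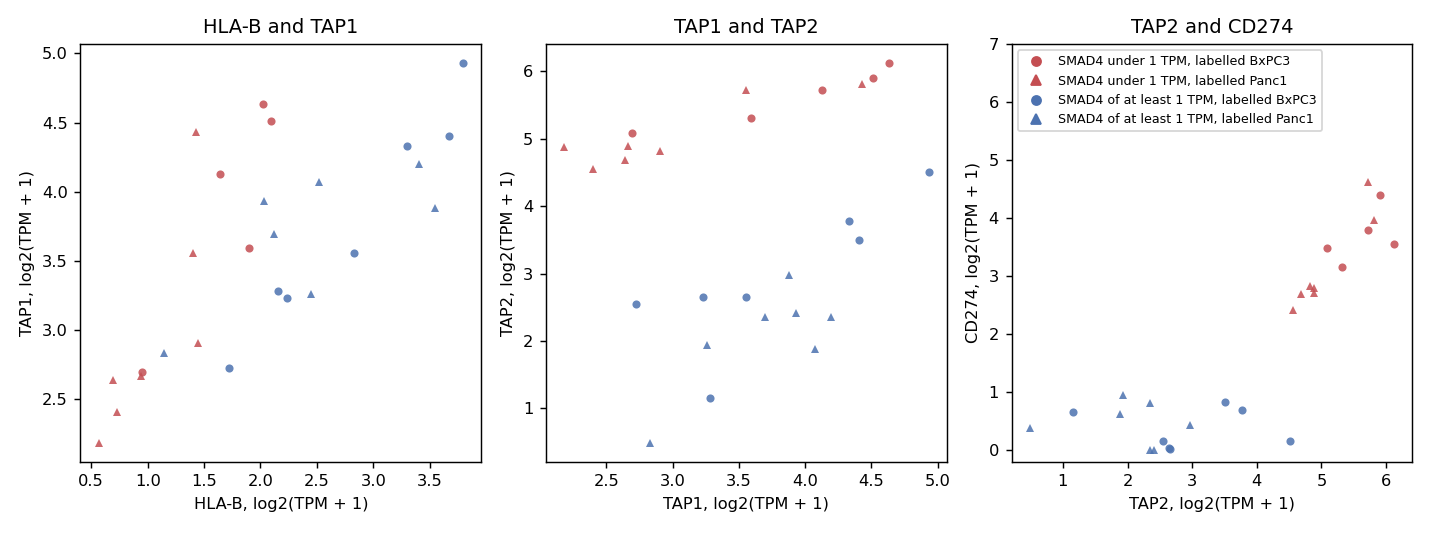
Log2(TPM + 1) of HLA-B and TAP1, TAP1 and TAP2, and TAP2 and CD274 in the 26 libraries, in red for SMAD4 under 1 TPM and blue for SMAD4 of at least 1 TPM. The red points rise together in all 3 panels (r of 0.89, 0.94 and 0.86), and in the right panel all blue CD274 values lie at or below 0.932 TPM.

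Among the SMAD4-expressing libraries HLA-B and TAP1 had an r of 0.84 (n = 14, permutation p = 0.00021) and a rho of 0.78 (permutation p = 0.0017), but the limma adjusted p over all genes was 0.174. TAP1 and TAP2 had an r of 0.73 (n = 14, permutation p = 0.0027) and a rho of 0.54 (permutation p = 0.051), with a limma adjusted p of 0.436. The level of HLA-B moved here with its own effective length (r = -0.85, permutation p = 0.0001, rho = -0.91), and so did that of TAP2 (r = 0.79, permutation p = 9e-05, rho = 0.87). HLA-E, B2M and TAP1 did so too, with r of 0.81, -0.77 and -0.74 and adjusted values over the 14 relations computed of at most 0.00784. None of the 7 members passed in the SMAD4-low set. The part of the effective length in the pair relations was not tested.

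NLRC5 was not called with any member in either set. In the SMAD4-low libraries its r was 0.52 with HLA-B, 0.37 with TAP1, 0.37 with TAP2, 0.35 with TAPBP, 0.30 with B2M and 0.23 with CD274, and the smallest limma adjusted p was 0.522. Across the SMAD4-expressing libraries its r ran from -0.21 with TAPBP to 0.40 with TAP1, with a smallest limma adjusted p of 0.697. Library 3 was the second highest of its set in NLRC5 (13.02 TPM) and the lowest in TAP2 (22.54 TPM). NLRC5 rose with the library total in the SMAD4-expressing set (r = 0.72, permutation p = 0.0036, rho = 0.78), with an adjusted value of 0.0504 over 14 relations.

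B2M was called with no gene in the SMAD4-low set when TPM was used. With the mean reads of the resamples scaled to the library, a scale added after the values had been seen, its r with TAP1 rose from 0.58 to 0.83 (limma adjusted p = 0.0159), with TAP2 from 0.54 to 0.86 (limma adjusted p = 0.0116) and with CD274 from 0.28 to 0.75 (limma adjusted p = 0.0329). On that scale 8 pairs were called. Library 3 held 1133 TPM of B2M, above the median of its set, but 9782 reads, the lowest of its set.

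In the SMAD4-low libraries most interferon-stimulated genes were called as positive with TAP1, TAP2, HLA-B and CD274, and the calls with HLA-B and CD274 depended on the label and on single libraries. The list held 12 genes, ISG15, IFIT1, IFIT2, IFIT3, IFI6, IFI44L, MX1, OAS1, GBP1, GBP2, CXCL10 and XAF1, which vary together and are not independent of each other. With TAP1 all 12 were called as positive, where 1.84% of all genes were. With TAP2 all 12 were called against 2.94%, with HLA-B 11 against 1.98% (ISG15 was not) and with CD274 11 against 3.53% (XAF1 was not). The limma adjusted p of the 12 genes with TAP1 ran from 0.000304 to 0.0272. With B2M, TAPBP and NLRC5 0 of 12 were called by limma when TPM of all 12 libraries was used. In the SMAD4-expressing libraries 7 of the 12 genes passed the minimum level and 0 were called with any member in TPM, and 1 was called with TAP1 by reads.

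With the label as a covariate 9 of the 12 genes were called with TAP1, 8 with TAP2, 2 with CD274 and 0 with HLA-B. With the library total as a covariate 10 were called with TAP1, 10 with TAP2, 8 with CD274 and 1 with HLA-B. Leaving out 1 library gave 10 to 12 calls with TAP1 and 9 to 12 with TAP2, the transporter genes. With HLA-B 0 were called without library 6 and 4 without library 3, and with CD274 0 without library 3 and 7 without library 5 or 21. By the mean reads of the resamples 12 were called with B2M, 7 with TAPBP and 0 with NLRC5, and in TPM 11 were called with TAPBP once library 21 was left out.

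**Figure D5:**
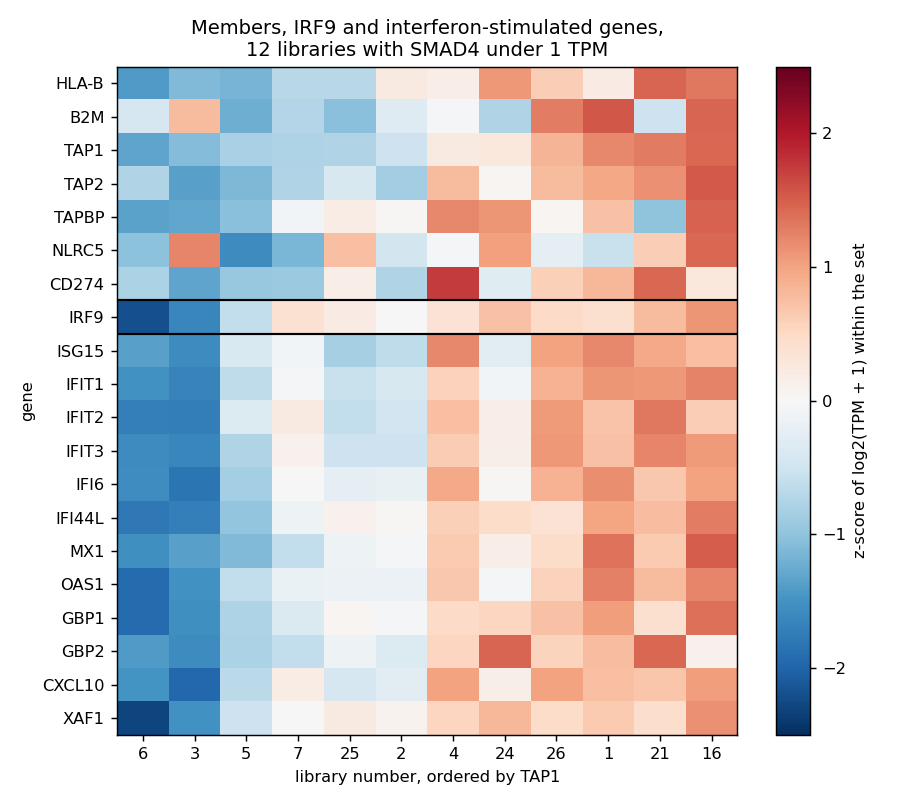
Z-score of log2(TPM + 1) within the 12 SMAD4-low libraries for 7 members, IRF9 and 12 interferon-stimulated genes, with libraries ordered by TAP1. Libraries 6, 3 and 5 are low and libraries 1, 21 and 16 are high in TAP1, TAP2 and most interferon-stimulated genes, whereas NLRC5 is high in library 3.

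The levels of these genes spanned wide ranges. MX1, an antiviral GTPase, ran from 15.14 to 353 TPM in the SMAD4-low and from 3.22 to 8.396 TPM in the SMAD4-expressing libraries. CXCL10, a chemokine for T cells, ran from 1.82 to 131 TPM in the SMAD4-low libraries and was listed at 0 in all 14 others. Together with IFI44L, OAS1 and GBP1 they were the 5 of 12 genes whose ranges did not overlap, against 31.0% of all genes, and all 5 were higher in the SMAD4-low set.

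Of the interferon signalling genes, IRF9, which binds interferon-response elements as part of a complex, was called as positive with HLA-B, TAP1 and TAP2 (limma adjusted p = 0.0316 with TAP1). IRF1, another factor of these elements, was 64.3 to 153 TPM against 23.9 to 53.9 TPM without overlap, but it was not called with TAP1 (limma adjusted p = 0.290). IFNGR1, a chain of the interferon-gamma receptor, was called with HLA-B, TAP1, TAP2 and CD274 and did not overlap between the sets. With the label as a covariate IRF9 was called with none of these members (limma adjusted p = 0.203 with TAP1) and IFNGR1 with TAP2 and CD274 only.

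Of the loading and trimming genes ERAP2, an aminopeptidase that trims peptides, was called as positive with HLA-B, TAP1, TAP2 and CD274 (limma adjusted p = 0.00265 with TAP1), and with the label as a covariate with TAP1 only (limma adjusted p = 0.0367). ERAP2 was 80.2 to 179 TPM against 4.78 to 15.8 TPM without overlap. CANX, a chaperone of new heavy chains, went the other way with 6.49 to 45.1 TPM against 127 to 291 TPM. CALR and PDIA3, further parts of the loading complex, overlapped and were called with none of the members. Of the 5 immunoproteasome and activator genes PSMB8 alone was called, with TAP1 (limma adjusted p = 0.0402, and 0.198 with the label as a covariate), and PSME1 alone did not overlap, with 97.7 to 154 TPM against 42.3 to 73.6 TPM. The 3 constitutive proteasome genes overlapped.

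Of the 11 class I promoter factors 6 did not overlap, against 31.0% of all genes. RFX5, NFYB and NFYC, which bind the X and Y boxes, were higher in the SMAD4-expressing libraries, where RFX5 was 43.8 to 72.1 TPM against 23.25 to 43.6 TPM. CREB1, IRF1 and NFKB1 were higher in the SMAD4-low libraries. Only NFYB was called with a member, as negative with CD274 (limma adjusted p = 0.0242, and 0.0524 with the label as a covariate). Of 8 class II genes 6 stayed under 1 TPM in all 26 libraries, and CIITA, the class II counterpart of NLRC5, was 0.415 to 1.73 TPM against 0.289 to 1.09 TPM.

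Of the other ligands of immune receptors PDCD1LG2, which encodes PD-L2, was 0.788 to 4.84 TPM in the SMAD4-low libraries and at most 0.0565 TPM in the others. It was called as positive with CD274 (limma adjusted p = 0.0114) and TAP2. PVR and ULBP2 were higher in every SMAD4-low library, and ULBP1 and CMTM4 in every SMAD4-expressing library. The epithelial keratins KRT8 and KRT19 were called as negative with CD274, and KRT19 also with TAP2, within the SMAD4-low set. None of PDCD1LG2, KRT8 and KRT19 was called with CD274 without library 3, where the lowest of the 3 limma adjusted p was 0.0532. The repressor subunits EED and SUZ12 did not overlap, EED higher in the SMAD4-low and SUZ12 in the SMAD4-expressing libraries.

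The genes most like the mean z-score of the 7 members in the SMAD4-low set, among 10464 genes and over 12 libraries, were MX1 (r = 0.94), ZC3H12C, C1S, IL1A and PSMA6, all at 0.93. IRF1 ranked 2088. In the SMAD4-expressing set, among 10161 genes and over 14 libraries, they were COL7A1 (r = 0.84), IL18BP, PROSER1, JAM3 and FGFR1. There the 7 members included HLA-E and not CD274. These values are a description, and no p was computed for them.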

How the data were processed

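Polyadenylated RNA of 26 SCDCLs was sequenced once each with the strand kept, so p-values measure only the spread between libraries. Differences between SCDCLs and between preparations cannot be told apart in it. The authors mapped the reads with kallisto 0.46.1 to the Ensembl GRCh38.103 transcriptome. The deposited table gives per gene TPM, estimated counts (scaled from TPM by mean length), the effective length as another value in bases, and estimated counts of 30 kallisto resamples, of which the first 5 were used and 650 columns were not. Totals were 27035724 to 34945608 estimated counts, so genes with few reads are limited by counting error and by assignment among similar transcripts.

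Groups came from the labels, and replicate numbers are unique library numbers. Identifiers were matched to symbols for 36315 of 41078 rows. The members and lists were chosen with earlier results of these data known, and named genes were the 9 members, SMAD4, listed genes fixed by name or with ranges that did not overlap, the 5 genes most like the members in each set, called pairs and pairs with NLRC5. Some list genes were named further because they were called with a member. Some of the genes named by this rule are not reported here.

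Estimated counts were rounded for edgeR 4.0.16 (quasi-likelihood, TMM, filterByExpr) and DESeq2 1.42.0. Relations used limma 3.58.1 on log2(TPM + 1), with Benjamini-Hochberg adjustment over all genes of a median of at least 1 TPM, and 100000 permutations, two-sided, for named pairs. Python 3.11.15 and R 4.3.3 were used, and both fits were tested on simulated data. Alternatives were other size factors, filters, pseudocounts, scales, covariates and leaving out each library.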

Additional observations from a re-analysis of the deposited data

How the results depend on the processing

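Of the 5 pairs called in the SMAD4-low libraries, 5 were called with a pseudocount of 0.1 and with CPM and TMM factors, and 4 without the filter. With the label as a covariate 2 were called, with the library total as a covariate 3, and with the mean reads of the resamples scaled to the library 8. Leaving out 1 library gave 2 to 5 calls. In the SMAD4-expressing libraries 0 pairs were called under all of these alternatives. Between the labels DESeq2 called 2 genes, and every other alternative, leaving out each library included, called 0. Members with ranges that did not overlap between the sets numbered 4, and 3 to 5 under the alternatives: 3 with CPM and TMM factors, 5 by reads and 5 without library 12. Among values with no call, the label log2 fold change turned with limma to -0.023 for HLA-E and 0.074 for CD274. With 1 library left out it ranged from -0.10 to 0.35 for HLA-E, -0.16 to 0.41 for B2M, -0.012 to 0.088 for TAPBP and -0.61 to 0.33 for CD274. The r of NLRC5 with CD274 in the SMAD4-low set turned to -0.019 with the label and -0.073 with the library total as a covariate. For NLRC5 and HLA-E in the SMAD4-expressing set it was -0.0024 with a pseudocount of 0.1, ranged from -0.17 to 0.21 with 1 library left out and was -0.34 without the 2 farthest libraries. Without the 2 farthest it was 0.19 for NLRC5 with B2M and -0.061 with TAP2, and with B2M it ranged from -0.13 to 0.075 with 1 library left out. The cause was not tested. No row shares a symbol with another for any member, so summing such rows could not be run. No paired analysis was possible because no library number occurs under both labels. The precision of HLA-B, HLA-C, HLA-E and, in the SMAD4-expressing set, CD274 is limited by their few reads. For TAP2 in that set the resamples assigned few reads, which did not match its TPM in every library.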
